A study of Mus musculus with 2 samples.

Results

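The Hedgehog pathway genes described here are the ligand Shh, its receptors and coreceptors Ptch1, Boc and Cdon, the ligand-binding antagonist Hhip, the signal transducer Smo, and the transcription factors Gli1, Gli2 and Gli3. They were taken as every probe set whose platform annotation names exactly 1 of these genes, which gave 23 of the 45101 probe sets on the array and 9 of the 18193 genes. No probe set named a member together with another gene (0 found). The RNA came from epithelium isolated from the lungs of ICR mouse fetuses at embryonic day 11, embedded in Matrigel (a basement membrane gel) and grown for 4 days with FGF10, the growth factor of lung budding, and CHIR99021, a small molecule that blocks glycogen synthase kinase 3 and so activates canonical Wnt signalling. The tissue was then fragmented, embedded again and grown for 2 days with FGF10, either with CHIR99021 still present or without CHIR99021. Both cultures had therefore received the inhibitor at first, and the comparison asks how continued exposure differs from withdrawal. There was 1 array per condition. Every value below is a single measurement with no error between cultures, and no p-value can be given. The labels do not say how many fetuses went into a culture.

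Shh is a secreted, lipid-modified protein made by lung epithelium and received mostly by the surrounding mesenchyme. Without ligand, Ptch1 keeps Smo inactive, and Gli3 is cut to a repressor at the primary cilium. With ligand, Smo is released, Gli factors act as activators, and Gli1, Ptch1 and Hhip are transcribed as targets that report pathway activity. Gsk3b, a target of CHIR99021, is also one of the kinases that prepare Gli proteins for cutting.

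The ligand gene Shh was lower with CHIR99021, its receptor Ptch1 was lower by less than 2-fold, and Gli3 was higher. Smo and Cdon had nearly equal signals on the arrays. Gli1, Gli2, Hhip and Boc lay below or next to background. Of the 9 genes, 6 were above the background floor on both arrays, 2 were below it on both and 1 was above it on 1 array only. Among the 6, 1 gene reached 2-fold higher with CHIR99021 and 1 reached 2-fold lower. Across the 12917 genes above the floor on at least 1 array, 1.90% reached 2-fold higher and 18.4% reached 2-fold lower. The median log2 ratio of the 6 genes was 0.05, against -0.40 for all 11356 genes above the floor on both arrays, of which 76.4% had a lower signal with CHIR99021.

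**Figure D1:**
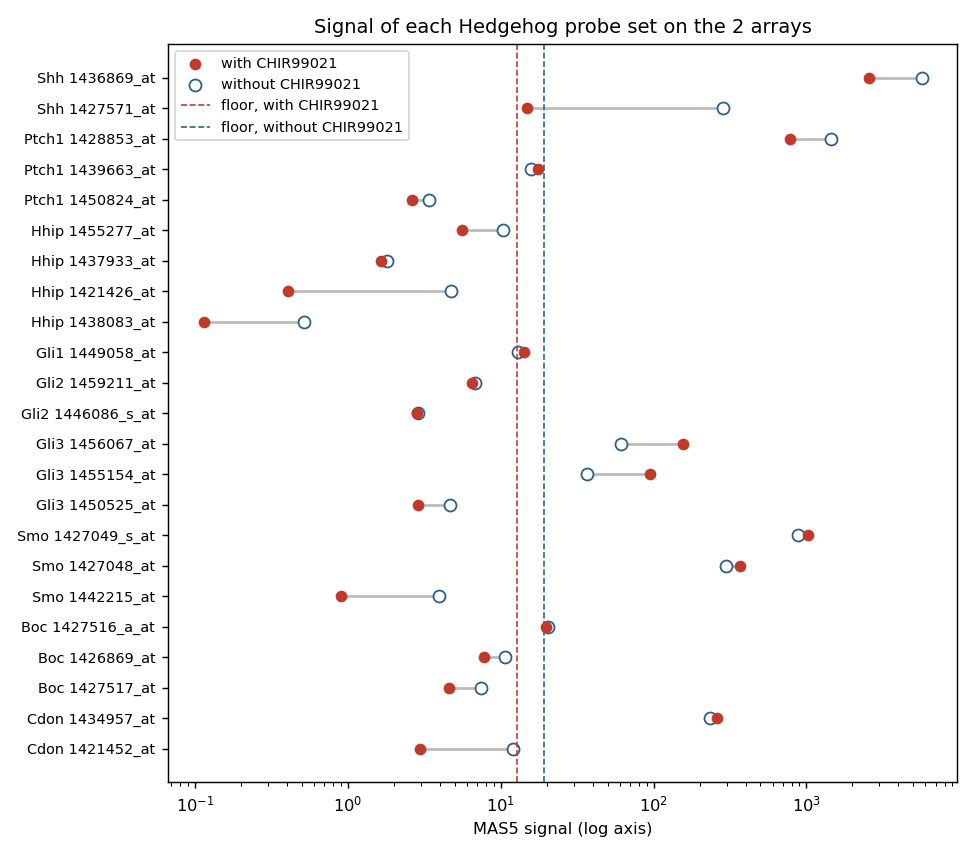
MAS5 signal (log axis) of each of the 23 Hedgehog probe sets with CHIR99021 (filled red) and without it (open blue), 1 array each; dashed lines are the background floors, 12.7 with and 19.2 without CHIR99021. The brightest probe sets of Shh and Ptch1 lie lower with CHIR99021, 2 of 3 for Gli3 lie higher, and 12 probe sets are below the floor on both arrays.

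The 2 arrays differ as a whole, which touches each ratio. The median signal over probe sets other than controls was 20.3 with CHIR99021 and 32.9 without it. The 3' probes of beta-actin were brighter than its 5' probes by a factor of 3.18 with CHIR99021 and 1.29 without it, and for Gapdh this factor was 1.62 with and 0.737 without CHIR99021. The part of this difference in 3' bias in the ratios below was not tested. Log2 ratios of different probe sets of 1 gene had a standard deviation of 0.557 over 5335 genes, which measures disagreement between probes and not between cultures. As a check of the labels, 7 of 9 Wnt target genes with a probe set reached 2-fold higher with CHIR99021 and 0 reached 2-fold lower. They were Lgr5, Dkk1, Lef1, Axin2, Sp5, Nkd1 and Rnf43, while Znrf3 and Notum were brighter by less than 2-fold. Lef1, the DNA-binding factor that beta-catenin joins, had 225 with CHIR99021 and 29.8 without it.

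Shh was read by 2 probe sets. The brighter one, 1436869_at, had a signal of 2557 with CHIR99021 and 5662 without it, 2.21-fold lower, or a log2 ratio of -1.15. The other, 1427571_at, had 14.8 with CHIR99021, just over the floor of 12.7, and 285 without it, 19.2-fold lower. Both probe sets placed the ligand lower with CHIR99021, but their log2 ratios were 3.12 apart, more than the spread usual between probe sets of a gene. Among all genes above the floor on both arrays, the brighter probe set's ratio stood at percentile 13.2. Relative to the median gene it was lower by 0.74 on the log2 scale (-0.74), less than 2-fold. The 2-fold call depends on scaling: the log2 ratio was -1.03 after loess, -0.99 after quantile normalization, -0.98 when scaled on hybridization controls and -0.67 after median centring. In a bulk sample such as this, fewer Shh-expressing cells and less Shh RNA per cell cannot be told apart.

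Ptch1, the receptor that binds Shh and is itself a pathway target, was read by 3 probe sets. The only one above the floor on both arrays, 1428853_at, had 778 with CHIR99021 and 1445 without it, 1.86-fold lower and under the 2-fold threshold. Its log2 ratio of -0.89 stood at percentile 21.5 of all genes and was -0.49 relative to the median gene. A dim probe set, 1439663_at, had 17.6 with CHIR99021, over the floor there, and 15.8 without it, under the floor, so it gives no ratio. The last, 1450824_at, was below the floor on both arrays. The ligand and its receptor thus lay on the same side of the median gene. On the deposited scale Shh lay further from it, at -0.74 against -0.49 for Ptch1. These distances were -1.11 against -0.64 after quantile normalization and -1.07 against -0.63 after loess. Median centring and hybridization controls shift all ratios alike and cannot change them. The gap between Shh and Ptch1 was smaller than the standard deviation of 0.557 between probe sets of a gene.

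The coreceptors Cdon and Boc are related membrane proteins of the immunoglobulin superfamily that bind Shh and aid its reception. Cdon had a signal of 260 with CHIR99021 and 234 without it in its brighter probe set, 1434957_at, a log2 ratio of 0.15. The log2 ratio was 0.56 relative to the median gene and lay between 0.14 and 0.71 over the alternatives run. Its other probe set was below the floor on both arrays. Boc was at the edge of detection: of its 3 probe sets, 1427516_a_at alone exceeded both floors, with 19.8 with CHIR99021 and 20.4 without it, which is 1.55 and 1.07 times the floor of each array. The other probe sets of Boc were below the floor on both arrays, and its log2 ratio of -0.05 turned positive under all 4 other scalings, up to 0.64 after quantile normalization.

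Smo, the membrane protein that carries the signal onward once Ptch1 is bound by ligand, had similar signals in both cultures. Its probe set 1427049_s_at had 1031 with CHIR99021 and 878 without it, and 1427048_at had 366 with CHIR99021 and 298 without it. These gave log2 ratios of 0.23 and 0.30, a gap of 0.07 between probe sets. While most genes were dimmer with CHIR99021, Smo was slightly brighter, at percentile 87.1 of all genes and at 0.63 relative to the median gene. The remaining probe set, 1442215_at, was below the floor on both arrays. Smo stayed under 2-fold on each of the 4 other scalings, where it reached at most 0.71.

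Gli3, the family member that acts mainly as the repressor of the pathway, was the only member at least 2-fold higher with CHIR99021. The probe set 1456067_at had a signal of 157 with CHIR99021 and 61.3 without it, 2.56-fold higher. The probe set 1455154_at had 94.4 with CHIR99021 and 36.4 without it, 2.59-fold higher. Their log2 ratios of 1.35 and 1.37 were 0.02 apart, closer than the spread usual between probe sets of a gene. The first stood at percentile 99.1 of all genes above the floor on both arrays. It was 1.76 above the median gene on the log2 scale and lay between 1.16 and 1.99 over the alternatives run. The remaining probe set, 1450525_at, was below the floor on both arrays and gives no ratio.

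**Figure D2:**
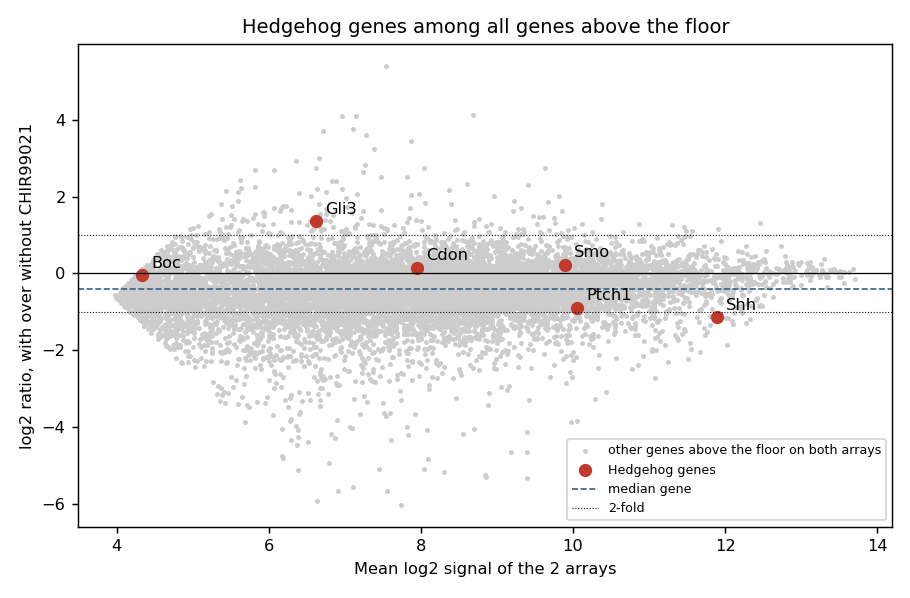
Log2 ratio (with over without CHIR99021) against the mean log2 signal of the 2 arrays for the 11356 genes above the floor on both, with the 6 Hedgehog genes among them in red; the dashed line is the median gene at -0.40 and dotted lines mark 2-fold. Gli3 lies above the 2-fold line, Shh just below the lower one, and Smo, Cdon and Boc lie near 0, above the median gene.

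Gli1, a transcriptional activator and the most direct readout of the pathway, had a single probe set, 1449058_at, with 14.1 with CHIR99021 and 12.9 without it. The value with CHIR99021 was 1.11 times its floor and the value without it 0.674 times its floor, so no ratio can be given. Gli2, the main activator downstream of Smo, was below the floor in both of its probe sets, at 6.44 and 2.85 with CHIR99021 and 6.76 and 2.88 without it. Hhip, a membrane-anchored target that sequesters the ligand, was below the floor in all 4 probe sets, the brightest at 5.56 with CHIR99021 and 10.3 without it. Of the 3 genes that report pathway activity, Ptch1 was thus well above background, while Gli1 and Hhip were not distinguishable from it. These values are limits of the probe sets on this array and do not show that the transcripts are absent.

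Detection differed between probe sets of the same gene. Probe sets that the annotation ties to a RefSeq mRNA record numbered 5 among the members, 1 each for Ptch1, Hhip, Gli1, Gli3 and Cdon, and 0 of them were above the floor on both arrays. Of the 18 others, 9 were. Over all probe sets of single genes the shares were close to each other, 57.4% of 5891 with such a record and 59.1% of 29054 without. Levels are therefore not compared between members, and the ratios rest on 9 probe sets of 6 genes.

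**Figure D3:**
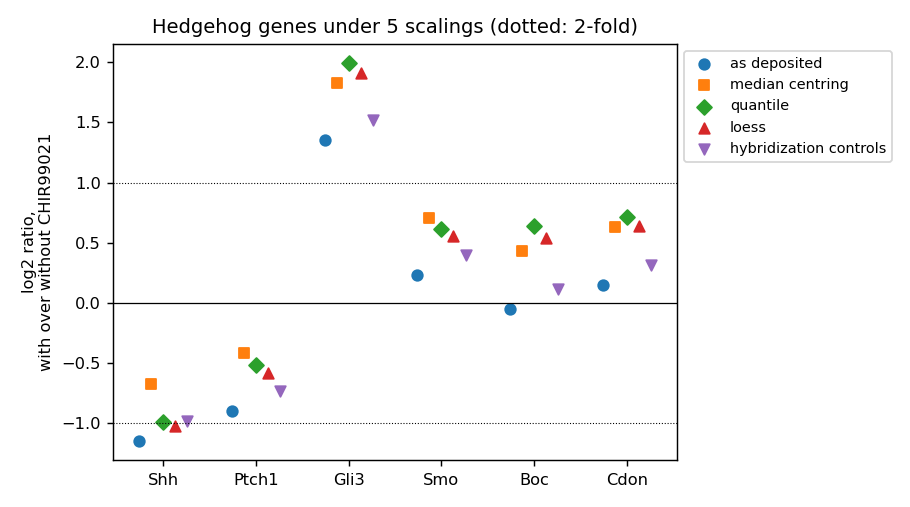
Log2 ratio (with over without CHIR99021) of the 6 Hedgehog genes above the floor on both arrays, on the deposited scale and under 4 other scalings; dotted lines mark 2-fold. Gli3 stays above 2-fold and Smo and Cdon between 0 and 2-fold in each, Ptch1 lies between -0.89 and -0.42, Shh falls on either side of the lower 2-fold line, and Boc changes sign.

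Of the further genes of the pathway, 43 were listed, 39 had a probe set and 30 were above the floor on at least 1 array. On the deposited scale 0 reached 2-fold higher with CHIR99021 and 4 reached 2-fold lower, set beside 1.90% and 18.4% of all genes. Their median log2 ratio over 29 genes above the floor on both arrays was -0.34, against -0.40 for all genes. The list as a whole therefore lay close to the rest of the array.

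Most genes for making and releasing ligand were at background. The other ligands, Dhh and Ihh, were below the floor on both arrays, as were Scube1, Scube2 and Scube3, secreted proteins that help release the lipid-modified ligand. Hhat, the enzyme that attaches palmitate to Shh, had 68.0 with CHIR99021 and 93.5 without it. Disp1, the transporter that exports Shh, had 67.1 with CHIR99021 and 82.2 without it. Both differences were under 2-fold, with log2 ratios of -0.46 and -0.29. A dimmer probe set of each was lower still: that of Hhat was below the floor with CHIR99021 and at 31.5 without it, and that of Disp1 had a log2 ratio of -0.96. These genes were chosen after their values were seen. So were those not at least 2-fold different in the paragraphs below on receptors, the cilium and Gli regulation, other than the brightest of the list.

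Among receptors of ligand, Lrp2, a large endocytic receptor that binds Shh, had 16.6 with CHIR99021 and 57.3 without it, 3.46-fold lower. A further probe set of Lrp2 was below the floor with CHIR99021 and at 72.9 without it. Another was above the floor with CHIR99021 only, at 17.6 with and 9.26 without it, and gives no ratio. Gas1, a coreceptor, was below the floor on both arrays. Gpc3, a glypican that competes for ligand, had 375 with CHIR99021 and 340 without it, and Gpc6, a glypican that promotes reception, had 272 with CHIR99021 and 197 without it, with other probe sets from -0.14 to 1.06 on the log2 scale.

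Genes that act on Smo and the Gli factors at the primary cilium had the highest median of the 4 role groups, 0.50 over the 8 genes above the floor on both arrays. Of these 8, 5 were brighter with CHIR99021. Over all genes the median was -0.40 and 76.4% were dimmer. The other groups rest on 2 genes (ligand processing and release), 3 (reception) and 16 (Gli regulation). Evc2, a ciliary protein that binds Smo, had 174 with CHIR99021 and 90.7 without it, a log2 ratio of 0.94. Its partner Evc had 29.98 with CHIR99021 and was below the floor without it, at least 1.56-fold higher. Kif7, a kinesin that organises the ciliary tip where Gli proteins collect, had 102.4 with CHIR99021 and 58.6 without it (0.81), and Gpr161, a receptor that raises cyclic AMP and favours Gli3 cutting, had 127 with CHIR99021 and 85.2 without it (0.58). The arrestins, which help bring Smo to the cilium, were divided: Arrb2 had 118.1 with CHIR99021 and 59.6 without it (0.99), whereas Arrb1 had 37.0 with CHIR99021 and 118.4 without it, 3.20-fold lower. The rest of the group were Iqce (0.42), Tulp3 (-0.02) and Rab23 (-0.35). Dimmer probe sets above both floors had 0.46 for Arrb2, 0.64 for Iqce, -1.24 for Tulp3 and 0.26 for Rab23. Further ones of Iqce and Rab23 were below the floor with CHIR99021 only, at 29.6 and 26.1 without it. A further one of Tulp3 was above the floor with CHIR99021 only, at 14.5 with and 7.28 without it, and gives no ratio. On the deposited scale Evc, Evc2, Kif7, Gpr161 and Arrb2 were all short of 2-fold. They had the highest ratios of the 9 genes of the group above the floor on at least 1 array. After median centring, quantile normalization or loess each of these 5 passed 2-fold, where 763, 940 and 779 of all 12917 genes did. Evc2 and Arrb2 also passed 2-fold when scaled on hybridization controls, as did 354 of all genes. These scalings raised the log2 ratio of the median gene from -0.40 to 0.07, 0.12, 0.05 and -0.24 in that order. Passing 2-fold under them is therefore not a separate result for genes picked as the highest of the group.

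Genes that hold back, modify or degrade Gli proteins went the other way on the deposited scale. Of 16 measured by their brightest probe sets, 0 were brighter with CHIR99021, 2 were at least 2-fold lower and the median log2 ratio was -0.68. Over all genes 76.4% were dimmer, 18.4% reached 2-fold lower and the median was -0.40. After median centring 6 of the 16 were brighter with CHIR99021, as were 6 after quantile normalization, 4 after loess and 3 when scaled on hybridization controls. Stk36, the fused kinase homologue, had 21.3 with CHIR99021 and 78.1 without it, 3.67-fold lower. Spop, the adaptor that marks Gli2 and Gli3 for destruction, had 651 with CHIR99021 and 1434 without it, 2.20-fold lower, and its other probe sets had log2 ratios of -2.93 and -1.20. The brightest probe set of Spop was under 2-fold on all 4 other scalings, between -0.97 and -0.66. Sufu and Gsk3b were named here after their values were seen. Sufu, the protein that binds Gli factors in the cytoplasm, had 124 with CHIR99021 and 156 without it. A dimmer probe set of Sufu had a log2 ratio of -0.68. Another, below the floor without CHIR99021 only, had a lower bound of 0.33. Genes for the kinases that phosphorylate Gli proteins, or their subunits, were under 2-fold in their brightest probe sets: Prkaca had 1152 with CHIR99021 and 2048 without it, Prkar1a 1429 with and 2578 without, and Csnk1a1 3823 with and 4418 without. A dimmer probe set of Prkaca had 205 with CHIR99021 and 194 without it (log2 ratio 0.08). Dimmer probe sets had log2 ratios of -0.74 and -0.04 for Prkar1a and from -1.26 to -0.23 for Csnk1a1. Gsk3b, whose product CHIR99021 inhibits, had 566 with CHIR99021 and 1051 without it in its brightest probe set (log2 ratio -0.89), and other probe sets ran from -1.02 to 0.20. Fbxw11, a ubiquitin ligase subunit, had 3842 with CHIR99021 and 4167 without it. Its other probe sets above both floors had log2 ratios from -0.51 to 0.15. A further one was below the floor with CHIR99021 and at 42.7 without it.

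**Figure D4:**
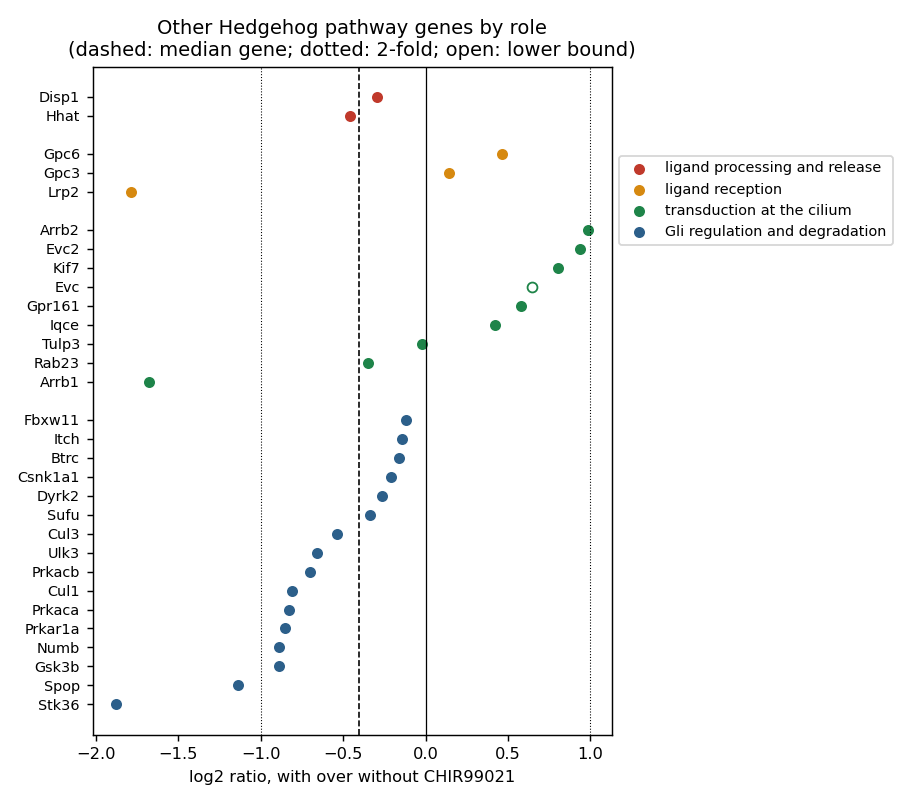
Log2 ratio (with over without CHIR99021) of the 30 further Hedgehog pathway genes above the floor on at least 1 array, coloured by role and ordered within it; the open point is a lower bound, the dashed line is the median gene and dotted lines mark 2-fold. Most genes acting at the cilium lie right of 0, all genes of Gli regulation lie left of it, and 4 genes lie beyond 2-fold lower.

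Genes known as Hedgehog targets in various tissues gave little signal in common. Of 25 with a probe set, 18 were above the floor on at least 1 array, 0 reached 2-fold higher and 4 reached 2-fold lower, beside 1.90% and 18.4% of all genes, with a median log2 ratio of -0.36 over 16 genes. The targets thus lay near the rest of the array. Foxf2 and Foxl1, forkhead factors that answer to Shh in lung and gut mesenchyme, were below the floor on both arrays, and Foxf1 had 14.9 with CHIR99021, just above the floor, and 18.0 without it, below the floor. A further probe set of Foxf1 was below the floor with CHIR99021 and at 25.7 without it. These forkhead genes were chosen after their values were seen. The 4 lower genes were Igf2, a growth factor, at 1486 with CHIR99021 and 4559 without it (3.07-fold), Ccnd2, cyclin D2, at 1952 with and 5911 without (3.03-fold), Jag2, a Notch ligand, at 33.3 with and 85.3 without (2.57-fold), and Grem1, a BMP antagonist, at 18.7 with and 40.05 without (2.15-fold). Another probe set of Jag2 went the other way, with 47.7 with CHIR99021 and 40.2 without it. Jag2 was under 2-fold after median centring, quantile normalization and loess, and Grem1 on all 4 other scalings. Mycn, a growth-promoting transcription factor, had 1464 with CHIR99021 and 1418 without it, Bmp4 4126 with and 3911 without, Ccnd1 1360 with and 1886 without, and Rab34, a ciliary GTPase, 768 with and 598 without. Dimmer probe sets of Mycn and Ccnd1 were lower, with log2 ratios down to -1.07 for Mycn and -1.09 for Ccnd1. Many of these genes answer to other pathways too, so their values do not report Hedgehog activity by themselves.

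The labelled tissue was checked against its markers, since responding mesenchyme would carry Ptch1, Gli1 and Hhip. All 16 epithelial markers had a probe set, and 15 with CHIR99021 and 16 without it were above the floor, with a summed signal of 38519 with CHIR99021 and 54045 without it. Sftpc (8500.0 with and 8808 without CHIR99021), Id2 (7265 with and 4855 without), Cdh1 (3574 with and 6414 without) and Epcam (3743 with and 3846 without) were bright in both cultures. Of the 16, 1 was at least 2-fold higher with CHIR99021 and 4 were at least 2-fold lower, beside 1.90% and 18.4% of all genes. The median log2 ratio of the 15 markers above the floor on both arrays was -0.50, against -0.40 for all genes. Sox9, a marker of distal buds, had 771 with CHIR99021 and 70.1 without it, 11.0-fold higher. Krt19 had 278 with CHIR99021 and 4030 without it, 14.5-fold lower, and the other keratin genes Krt8 and Krt18 were 2.45-fold and 2.38-fold lower, though under 2-fold after median centring. The list as a whole thus lay close to the rest of the array, while single markers such as Sox9 and Krt19 differed between the 2 cultures. The part of that difference in the values of Shh, Ptch1 and Gli3 was not tested. Of 21 mesenchymal markers, 9 with CHIR99021 and 7 without it were above the floor, with a summed signal of 484 with CHIR99021 and 596 without it. Acta2, at 194 with CHIR99021 and 199 without it, was the brightest, and the collagen genes followed: Col3a1 had 54.6 with and 88.7 without CHIR99021, Col1a2 49.3 with and 63.8 without, and Col1a1 35.8 with and 24.7 without. Tagln, at 13.7 with and 33.4 without CHIR99021, was the only one at least 2-fold lower, and it was under 2-fold after median centring, quantile normalization and loess. Pdgfrb, Tbx4, Fgf10, Twist1, Twist2, Prrx1 and Wnt2, chosen after their values were seen, were below the floor on both arrays in every probe set, as was the brightest probe set of Pdgfra, another of which had 24.7 without CHIR99021. Of 9 endothelial markers, 4 with CHIR99021 and 3 without it were above the floor, with a summed signal of 113.3 with CHIR99021 and 137 without it, the brightest being Cldn5, Kdr and Eng. Of 6 blood markers and of 5 neural markers, 2 of each were above the floor on each array, with summed signals of 92.8 with and 114 without CHIR99021 for blood and 53.1 with and 71.8 without CHIR99021 for neural markers. The blood markers above the floor were Csf1r and Cd68. The neural ones were Elavl4 with CHIR99021, Stmn2 without it and Ret in both cultures. For Nkx2-1, which sets lung identity, the probe set was below the floor with CHIR99021 and dim, at 52.0, without it.

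The RefSeq promoter table of build GRCm38.p6 held upstream windows of 250 bases for 6 members (Gli2, Smo, Hhip, Cdon, Gli3 and Ptch1). They were searched on both strands for the Gli motif TGGGTGGTC and for the TCF motif CTTTGAT, the binding motifs of the factors at the ends of the Hedgehog and Wnt pathways. The Gli motif was found in 0 of the 6 windows, also with 1 mismatch allowed, and the TCF motif in 0. Over all 32851 windows of that length the shares were 0.225% for the Gli motif, 5.79% with 1 mismatch allowed and 3.21% for the TCF motif. The windows of Cdon, Ptch1 and Gli2 lie inside the annotated span of the gene. For these genes the search does not cover the bases before the outermost start. The window of Hhip, at chr8:80058009-80058258 on the minus strand, lies partly inside its gene of 79965850-80058060. The Cdon window is at chr9:35451826-35452075 in a gene of 35421528-35507652. The Ptch1 window is at chr13:63565736-63565985 in a gene of 63508328-63573460. The window of Gli3, the member with the highest ratio, reads as follows, 5′ to 3′ on the plus strand at chr13:15463473-15463722, with no base in capitals because neither motif is in it.
Gli3: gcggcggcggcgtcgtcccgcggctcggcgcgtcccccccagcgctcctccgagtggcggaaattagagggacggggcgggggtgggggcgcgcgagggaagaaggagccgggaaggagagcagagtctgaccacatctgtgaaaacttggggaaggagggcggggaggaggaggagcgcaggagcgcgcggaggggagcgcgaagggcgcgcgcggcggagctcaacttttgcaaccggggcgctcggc
Of its bases 72.8% are G or C, against a median of 52.4% over all windows.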

How the data were processed

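Gene expression was read from 2 Affymetrix arrays, 1 per culture condition, labelled from 100 ng of total RNA with a kit that primes at the poly-A tail, per the labels' protocols. The authors deposited an intensity value per probe set, computed with MAS5 per the submitters' processing notes, on a linear scale as the values show; the MAS5 version and any scaling target are not given in the sources used here. Of 45101 probe sets, 34958 name 1 gene in the platform annotation, 932 name several and were not used, and 9160 besides the controls are unnamed. Entrez identifiers of 34754 were found in a RefSeq table of GRCm38.p6.

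For each array, a floor was set at the 95th percentile of 80 probe sets of olfactory or vomeronasal receptors. Values below it were raised to it, so such a ratio is only a bound, and none is given where that bound falls on the wrong side of 1. Each gene is represented by its brightest single-gene probe set by mean log2 signal, giving 18193 genes. Log2 ratios are with over without CHIR99021, and 2-fold marks a difference. With 1 array per condition no error between cultures exists and no p-value was computed; the number of arrays limits the precision. Alternatives were median centring, quantile, loess (span 0.4) and hybridization control scaling, other floors, an offset of 16, other probe set choices and other folds. The calling of 2-fold differences was checked on simulated data, with planted changes larger than 2-fold in bright genes and no floor. That check does not cover changes near 2-fold or genes near the floor. Python 3.11.15, numpy 2.4.6, pandas 2.3.3, statsmodels 0.14.6 and matplotlib 3.10.9 were used.

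The members and gene lists were chosen with earlier results of these data known. Every member is given with every probe set. In each other list the text names members at least 2-fold different (up to 8, by size) and the 4 brightest of the rest. Names outside that rule were picked with their values known, as the text says.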

Additional observations from a re-analysis of the deposited data

How the results depend on the processing

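Gli3 was at least 2-fold higher under each scaling, floor, offset and probe set choice run. The count of members at least 2-fold lower (1, Shh) was 0 after median centring, after quantile normalization, with hybridization controls and at a 3-fold threshold, and 2 at 1.5-fold; the count of members higher was 0 at 3-fold. For the further pathway genes, those at least 2-fold higher numbered 0 on the deposited scale. They numbered 5 after median centring and after loess, 7 after quantile normalization, 2 with hybridization controls, 3 with no floor and 4 at 1.5-fold. Those at least 2-fold lower numbered 4 on the deposited scale, and 3 after median centring, after loess, with hybridization controls and at 3-fold. They numbered 2 after quantile normalization, 6 with no floor, 5 with the median over probe sets and 11 at 1.5-fold. For the target genes, those higher numbered 0 on the deposited scale and 2 after quantile normalization. They numbered 1 after median centring, after loess, with no floor and at 1.5-fold. Those lower numbered 4 on the deposited scale, and 2 after median centring, quantile normalization, loess and at 3-fold. They numbered 3 with hybridization controls and with the offset, 5 with no floor and 6 at 1.5-fold. Of all 12917 genes, 245 were higher and 2380 lower on the deposited scale. Those higher numbered 763 after median centring, 940 after quantile normalization, 779 after loess and 354 with hybridization controls. Those lower numbered 961, 817, 942 and 1765 in the same order. These scalings moved the log2 ratio of the median gene to 0.07, 0.12 and 0.05 for median centring, quantile normalization and loess, and to -0.24 for hybridization controls, and higher genes made up 44.3%, 53.5%, 45.3% and 16.7% of all 2-fold calls, against 9.33% on the deposited scale. With no floor, 1213 of 18193 genes were higher and 4606 lower. With the median over probe sets, 198 of 12962 were higher and 2665 lower. Of all 12917 genes, 652 were higher and 5002 lower at 1.5-fold, and 81 and 812 at 3-fold. With the offset 204 were higher and 1794 lower. Taking the median over probe sets moved the log2 ratio of Shh to -2.71. With the floor at the 99th percentile Boc was no longer above it on both arrays. Of 24 member ratios under the 4 other scalings, 5 moved by more than the standard deviation of 0.557 between probe sets (Gli3 and Boc after quantile normalization and loess, Cdon after quantile normalization). Other floors cannot move the ratio of a gene that stays above them. No paired analysis was possible because there is 1 array per condition.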

Other observations

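Genes of ciliary trafficking, the transport on which Smo and Gli proteins depend, were listed apart from the pathway. Of 28 with a probe set, 27 were above the floor on both arrays, 1 reached 2-fold higher with CHIR99021 and 4 reached 2-fold lower, with a median log2 ratio of -0.49, against -0.40 for all genes, of which 1.90% reached 2-fold higher and 18.4% 2-fold lower. Tmem107, a protein of the ciliary transition zone, had 1414 with CHIR99021 and 519 without it, 2.72-fold higher. A dimmer probe set of Tmem107 had a log2 ratio of 1.34. Another went slightly the other way, with 21.2 with CHIR99021 and 23.9 without it (-0.17). Kif3b, a subunit of the kinesin that carries cargo to the ciliary tip, had 32.8 with CHIR99021 and 156 without it, 4.75-fold lower, and other Kif3b probe sets exceeding both floors had log2 ratios of -1.07 and -0.66. The other subunit genes were Kif3a (chosen after its value was seen), with 146 with and 186 without CHIR99021 and other probe sets from -0.98 to -0.56 on the log2 scale, and Kifap3, with 452 with and 670 without. Bbs2, a subunit of the BBSome coat, was 2.72-fold lower, and Ift172 and Ift52, subunits of the intraflagellar transport complex, were 2.56-fold and 2.19-fold lower. Bbs2, Ift172 and Ift52 were each under 2-fold after median centring, quantile normalization and loess, and Ift52 also when scaled on hybridization controls. Ift74, a further subunit of that complex, had 545 with CHIR99021 and 309 without it, Ift81 328 with and 449 without, and Ofd1, a basal body protein, 366 with and 495 without.

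The genes nearest to Shh in their pair of log2 signals were Myh9 (2425 with CHIR99021 and 5273 without it), Cd9 (2741 with and 6180 without) and Pdia3 (2623 with and 5016 without). Those nearest to Gli3 were Kcnab1 (150.5 with CHIR99021 and 63.4 without it), Myb (165 with and 63.2 without) and Gm15867 (154 with and 65.7 without). With 2 arrays such likeness rests on 1 ratio and 1 level, and it describes these arrays only.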
